A study of Mus musculus with 24 samples.

Results

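The genes described here are 33 members of the enzyme families and complexes that add methyl groups to lysines of histone H3 or remove them, taken by symbol from the 16940 genes analysed. By assigned role they are 7 lysine 4 (K4) methylases, 6 subunits of the K4 methylase complexes, 4 K4 demethylases, 6 K9 methylases, 2 K9 demethylases, 3 demethylases of K9 and K36, 3 K36 methylases, 1 K36 demethylase and 1 K27 demethylase. Kmt2e was placed with the K4 methylases by family, and enzyme activity was not measured for any gene. RNA was sequenced from mouse oocytes of B6/129 strain. The knockout (KO) carried ZP3-Cre with Snf2h fl/fl. Its control, wild type (WT), carried Snf2h fl/fl with no Cre given. The promoter of Zp3, an oocyte gene of the egg coat, drives this Cre, so deletion is directed to oocytes. Snf2h, encoded by Smarca5, is the ATPase of the ISWI chromatin remodelling complexes, which space nucleosomes. Because Cre was given for KO alone, an effect of the transgene and one of Snf2h loss cannot be told apart. The 4 stages were growing oocytes of 40 to 45 µm in diameter (GO1), growing oocytes of 50 to 55 µm (GO2), and fully grown oocytes over 70 µm that were collected with no hormone given (nFGO) or after hormone (FGO). The labels give no age in days. Each genotype had 2 libraries at each stage, each a pool of 20 oocytes, which gives 16 libraries in 8 groups of 2. Nothing in the labels says that replicates came from separate animals, so a p-value measures the spread between these libraries alone, which may be technical. As molecule, polyA RNA is given for the 4 libraries of nFGO but total RNA for the remaining 12. Levels at nFGO and at another stage were therefore not compared by test. The test of KO effects in fully grown against growing oocytes does use nFGO, so this label difference enters it.

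Methylation of H3 marks genes by state. Trimethylated K4 sits at active promoters and monomethylated K4 at enhancers, methylated K9 marks silent chromatin, methylated K36 covers transcribed genes, and trimethylated K27 marks genes held silent by Polycomb. Growing mouse oocytes lay down K4 and K36 methylation over wide regions and acquire DNA methylation at the same time. In mouse, Setd2, the K36 trimethylase, and Kdm1b, a K4 demethylase, are both required for normal DNA methylation in oocytes, and Kmt2b supplies much of their K4 trimethylation.

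Smarca5 was at 0.70 to 2.06 RPKM in KO libraries, against 37.1 to 48.7 RPKM in WT libraries other than WT FGO replicate 2, which had 13.9 RPKM. RPKM is the read number scaled to transcript length and to the mapped reads of the library, so levels can be compared between genes per length. Member results that rest on WT FGO replicate 2 are therefore also given without it. Of 12 oocyte markers all were analysed, and their summed level was 13356 to 30523 RPKM. The 5 of 10 granulosa and cumulus markers analysed here summed to 14.1 to 70.1 RPKM. At GO1 they summed to 14.1 and 18.1 RPKM in KO, against 20.4 and 21.2 RPKM in WT, and at GO2 to 25.9 and 32.6 RPKM in KO, against 16.7 and 22.1 RPKM in WT. At nFGO they summed to 63.1 and 70.1 RPKM in KO, against 42.2 and 44.9 RPKM in WT, and at FGO to 46.2 and 51.5 RPKM in KO, against 36.2 and 45.2 RPKM in WT. The sum was thus higher in KO in each library pair at GO2, nFGO and FGO, with Cyp19a1 as its main part in fully grown oocytes. Kitl went the other way at nFGO, with 4.33 and 3.77 RPKM in KO, against 5.19 and 5.93 RPKM in WT. The 3 theca and stroma markers analysed here summed to 0.32 to 11.9 RPKM, with the highest in WT GO2 replicate 1, where Dcn alone had 11.5 RPKM, and at FGO they summed to 0.65 and 0.57 RPKM in KO, against 2.15 and 3.48 RPKM in WT. RPKM totals ran from 832384 to 1011538 per library. The authors' deposited mean counts, summed over genes, were lowest in both nFGO groups. In bulk libraries fewer cells of a type and less RNA per cell cannot be told apart, and every value is a share of its library.

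Levels differed widely between members. Averaged over 16 libraries as listed, 2 members were at or over 100 RPKM, 12 at 10 to 100 RPKM, 17 at 1 to 10 RPKM and 2 under 1 RPKM. Of the 33, 18 lay over the median gene, 23 reached 1 RPKM in all 16 libraries, and 32 passed the filter for testing (at least 1 RPKM in at least 2 libraries). Kmt2a, a promoter K4 methylase, was the member that did not pass, at 0.0095 to 0.82 RPKM.

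Among the K4 methylases Kmt2c, which methylates enhancers, was highest at 32.2 RPKM on average, and Kmt2a lowest at 0.16 RPKM. Kmt2e (8.46 RPKM), Setd1a (6.66 RPKM), Kmt2b (5.81 RPKM), Kmt2d (3.39 RPKM) and Setd1b (2.13 RPKM) lay between them. These genes all averaged less per length than Dpy30, Wdr5, Ash2l and Rbbp5. Kmt2c, however, was close to Rbbp5 and above Men1 and Cxxc1, and Kmt2e was above Cxxc1. Dpy30, a small subunit common to the K4 methylase complexes, averaged 698 RPKM and made up 38.3 to 62.7% of the summed RPKM of all members. The other shared core subunits, Wdr5, Ash2l and Rbbp5, averaged 39.8, 38.5 and 32.3 RPKM. Men1, which belongs to the Kmt2a and Kmt2b complexes, averaged 14.2 RPKM, and Cxxc1, which tethers the Setd1 complexes to unmethylated CpG, 7.92 RPKM.

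Among the demethylases of K4, Kdm1b averaged 207 RPKM, and its relative Kdm1a 17.2 RPKM. Kdm5a (2.996 RPKM) and Kdm5b (1.61 RPKM), which act on trimethylated K4, were lower still. Kdm1b held 68.2 to 94.6% of the summed RPKM of these 4 genes, more than all the others together in every library. Among the K9 methylases the order was Suv39h2 (67.7 RPKM), Setdb2 (48.6 RPKM), Setdb1 (26.9 RPKM), Ehmt1 (21.9 RPKM) and Ehmt2 (2.36 RPKM). Suv39h1 is listed at 1.38 RPKM on average, but the authors' deposited table goes against so low a place. There Suv39h1 had mean counts of 1474 to 1874 in the KO groups and 1444 to 2053 in the WT groups, not far from those of Suv39h2, its relative, at 2124 to 2735 in the KO groups and 1947 to 2635 in the WT groups. The count for each RPKM was 599 to 4969 for Suv39h1, where the median gene had 19.5 to 33.0, and at least 99.8% of genes lay under Suv39h1 in every group. The RPKM and the counts of Suv39h1 thus disagree for a reason that was not tested, so it is given no place in the order, and the 2 heterochromatin K9 methylases are not compared in level.

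The erasers of K9 were low: Kdm3b averaged 2.89 RPKM and Kdm3a 1.19 RPKM. Of the demethylases of K9 and K36, Kdm4a averaged 5.94 RPKM, Kdm4b 1.22 RPKM and Kdm4c 0.89 RPKM. The K36 methylases were led by Setd2 (39.8 RPKM), followed by Nsd1 (19.4 RPKM) and Ash1l (1.93 RPKM), which place lower degrees of K36 methylation. Kdm2a, which removes K36 methylation, averaged 1.77 RPKM, and Kdm6b, which removes K27 methylation, 6.72 RPKM. Neighbours in these orders often overlapped over the libraries, as Wdr5, Ash2l and Rbbp5 did, and Kmt2e, Setd1a and Kmt2b, and Setd2 and Nsd1. Others did not overlap with the next member of their role: Dpy30, Kdm1b and Kmt2c, and also Rbbp5, Men1, Kdm1a, Ehmt1, Nsd1 and Kdm4a.

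**Figure D1:**
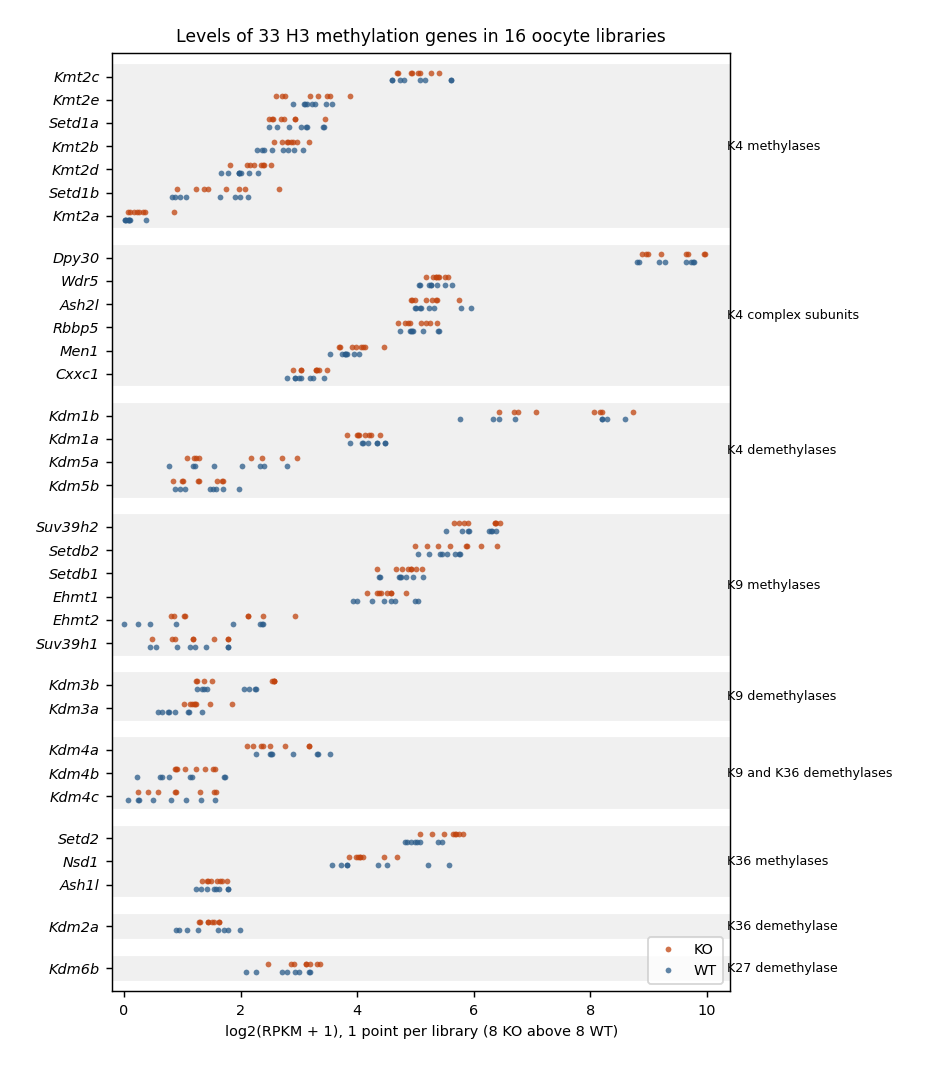
Level of each of the 33 members in each library, as log2(RPKM + 1) on the horizontal axis, with 8 KO libraries above 8 WT libraries for each gene and the roles set apart by grey bands. Dpy30 and Kdm1b lie farthest right at 698 and 207 RPKM on average, and Kmt2a lies at the left edge at 0.16 RPKM.

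The promoters played no part in choosing the members. Sequences upstream of the start site were matched for 21 of the 33 members in RefSeq (GRCm38.p6), and the first listed start of each gene was used, since 6 of the 21 have more than 1. In the 250 bases before that start these 21 held a median of 20 CpG (range 0 to 48), and all 27025 promoters in the same table a median of 6. Of the 21, 19 lay over that median, and the exceptions were Kdm4c (0 CpG) and Dpy30 (1 CpG), whose other listed starts hold 19 and 21 to 34 CpG. The GC box GGGCGG, read on both strands, was in 14 of the 21 and in 32.9% of all promoters, and CCAAT in 8 of the 21 and in 34.5% of all. TATAAA was in 0 of the 21 and in 13% of all promoters, CACGTG in 1 of the 21 (2 over all listed starts) and in 6.05% of all, and TAATTG in 0 of the 21 and in 7.34% of all. These counts are a description of letters in a window. The windows of the member with the largest called KO rise and of the one with the largest fall late in growth are printed 5′ to 3′ with each CpG in capitals. That of Setd2 (chr9:110532347-110532596, plus strand) has 31 CpG and 76% G and C, and that of Kdm1b (chr13:47043249-47043498, plus strand) has 22 CpG and 71.6% G and C.
Setd2: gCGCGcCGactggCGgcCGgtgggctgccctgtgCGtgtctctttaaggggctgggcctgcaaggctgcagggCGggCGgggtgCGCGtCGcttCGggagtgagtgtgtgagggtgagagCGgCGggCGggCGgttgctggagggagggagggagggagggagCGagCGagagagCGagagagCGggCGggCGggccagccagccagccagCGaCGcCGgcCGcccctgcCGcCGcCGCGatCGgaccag
Kdm1b: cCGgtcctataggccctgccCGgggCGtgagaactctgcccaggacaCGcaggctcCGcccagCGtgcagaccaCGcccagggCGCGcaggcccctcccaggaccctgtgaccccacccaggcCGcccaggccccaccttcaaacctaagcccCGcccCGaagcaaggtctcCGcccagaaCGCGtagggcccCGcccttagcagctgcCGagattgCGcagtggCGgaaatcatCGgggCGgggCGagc

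The comparison of KO with WT asks which of these genes depend on Snf2h at each stage. Tests were made with limma on log2(RPKM + 1) over 14557 genes with Benjamini-Hochberg adjustment, with calls made where the adjusted p was under 0.05. At GO1 none of the 32 members tested was called by limma, with 7 at an unadjusted p under 0.05, while 6.63% of all genes were called, 2.16% higher and 4.47% lower. Of all genes called at GO1, 314 of 965 were higher in KO, and with library medians made equal 427 of 981. At GO2 1 member was lower and 0 higher, while 7.64% of all genes were called, 2.96% higher and 4.68% lower. At nFGO 2 members were lower and 0 higher, while 16.2% of all genes were called, 6.77% higher and 9.4% lower. At FGO 1 member was higher and 0 lower, while 17.8% of all genes were called, 7.67% higher and 10.2% lower. Without WT FGO replicate 2 the genes called at FGO numbered 1591, against 2596 with it. Averaged over the 4 stages, 3 members were higher and 1 was lower, 12.5% of those tested, while 33% of all genes were called, 14.3% higher and 18.8% lower. In each of these comparisons the share of members called was under that of all genes, so the counts say nothing particular of the members as a group, and the results below are of single genes.

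**Figure D2:**
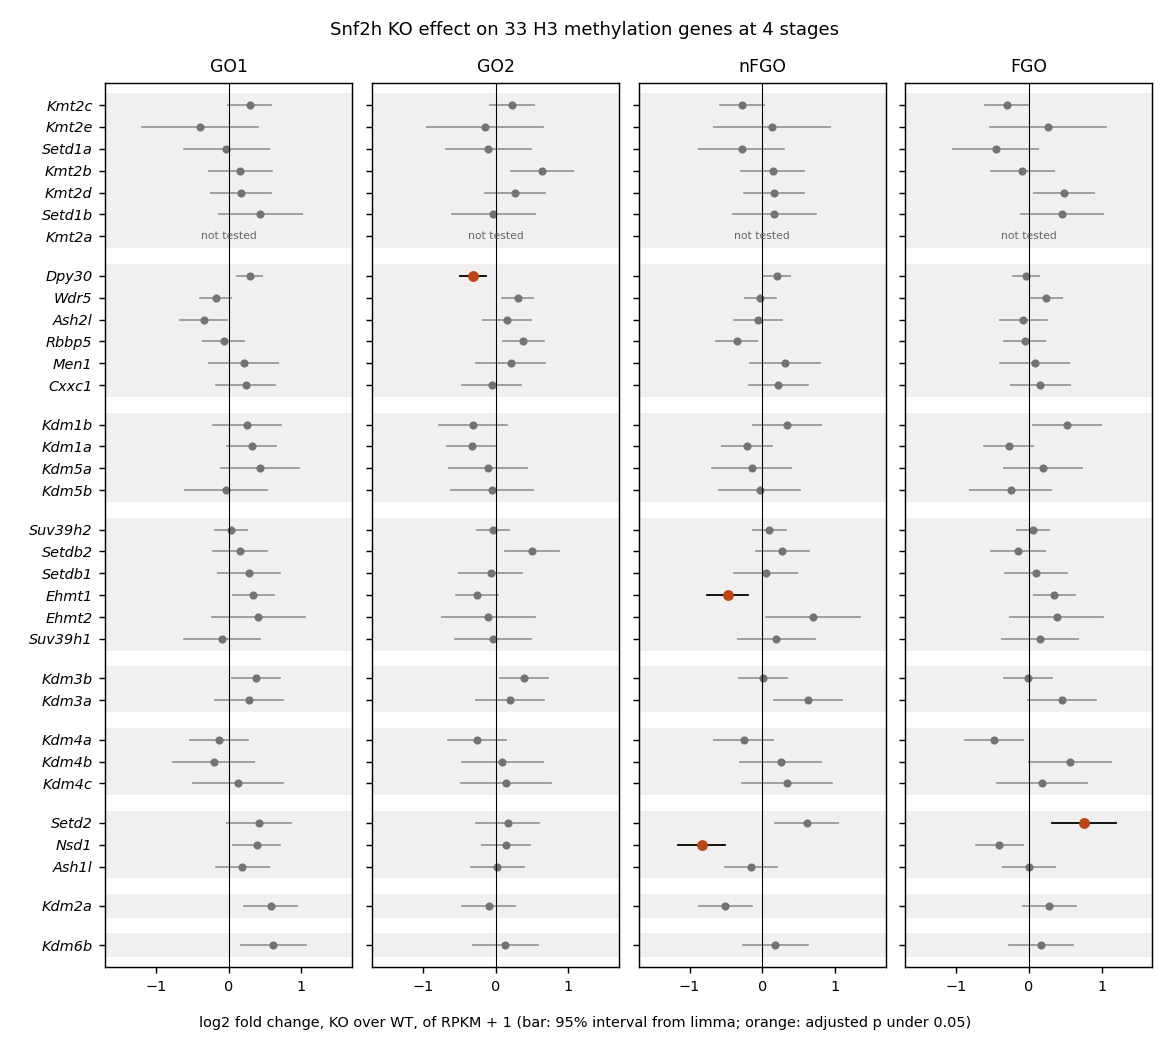
Log2 fold change of KO over WT at each stage, one panel per stage, for the 32 members tested, with 95% intervals from limma and called members in orange. The 4 called points are Dpy30 at GO2, Nsd1 and Ehmt1 at nFGO, and Setd2 at FGO.

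At GO1 the members leaned to the KO side: 23 of 32 had a positive log2 fold change with a median of 0.22, while 46.8% of all genes were positive with a median of -0.03. One library moved with this. KO GO1 replicate 1 was the highest of its stage for 20 of 33 members, while it was highest for 27.7% of all genes. How calls moved with a library left out is given for members and for all genes in the closing section. At GO2 16 of 32 members were positive, at nFGO 19 and at FGO 20, with medians of -0.00, 0.12 and 0.12.

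The K36 methylases held the largest called changes, in opposite directions. Setd2 (chr9:110532597-110618633 on mm10) had 49.0 and 53.0 RPKM in KO FGO, against 31.7 and 27.9 RPKM in WT FGO. It had 50.3 and 38.01 RPKM in KO nFGO, against 29.3 and 27.4 RPKM in WT nFGO. Both KO libraries lay above both WT libraries at each of the 2 fully grown stages. Such separation was common among all genes. By stage, both KO libraries lay above both WT libraries for 22.7 to 29.7% of them, and under both for 27.7 to 32.5%. Groups that do not overlap, here and below, are thus a description and not a test. Among growing oocytes Setd2 had 43.9 and 50.8 RPKM in KO GO2, against 42.9 and 40.99 RPKM in WT GO2. At GO1 it had 55.2 and 32.9 RPKM in KO, against 32.7 and 30.8 RPKM in WT. There, too, no KO library lay under a WT library, although at GO1 the lower KO library was close to them.

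Setd2 was higher in KO over the 4 stages (log2 fold change 0.49, SE 0.10, limma adjusted p = 0.00306) and stayed called under all 21 alternatives of processing and left-out libraries. By stage its log2 fold change was 0.41 at GO1, 0.17 at GO2, 0.61 at nFGO and 0.76 at FGO, and only the last was called by limma (adjusted p = 0.0222). The FGO call was lost when any 1 of the 4 libraries was left out: without WT FGO replicate 2 the log2 fold change was 0.67 and the limma adjusted p 0.116. Whether the KO effect differed between fully grown and growing oocytes was tested and not called (difference 0.39, limma adjusted p = 0.270, and 0.35 without WT FGO replicate 2). Over the 4 stages the log2 fold change was 0.46 without that library (limma adjusted p = 0.00843). In the authors' deposited table Setd2 had mean counts of 2089.9 in KO FGO and 1447.5 in WT FGO, a log2 fold change of 0.53 with p = 0.00356, which is not stated to be adjusted. The granulosa and cumulus marker sum given above was higher in KO FGO as well, and its part in the Setd2 values was not tested. At nFGO the authors' deposited table gives Setd2 a log2 fold change of only 0.21 (p = 0.145).

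Nsd1 (chr13:55209782-55318325), which places dimethylated K36, ran the other way in fully grown oocytes. It had 24.6 and 20.9 RPKM in KO nFGO, against 36.4 and 46.8 RPKM in WT nFGO. At FGO it had 15.6 and 15.1 RPKM in KO, against 21.9 and 19.5 RPKM in WT. At both stages every KO library lay under every WT library. Among growing oocytes the order was reversed: 15.7 and 16.3 RPKM in KO GO1, against 10.9 and 13.2 RPKM in WT GO1, and 14.8 and 13.5 RPKM in KO GO2, against 13.2 and 12.2 RPKM in WT GO2.

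Nsd1 was called lower at nFGO (log2 fold change -0.83, SE 0.15, limma adjusted p = 0.00376) but not at FGO (-0.41, limma adjusted p = 0.08004, and -0.49 without WT FGO replicate 2, limma adjusted p = 0.122). The nFGO call held with each of the 4 libraries left out and was lost when only the 4 nFGO libraries were fitted (limma adjusted p = 0.0520). The KO effect was lower in fully grown than in growing oocytes by 0.89 (SE 0.15, limma adjusted p = 0.00600), and this difference was called under all 21 alternatives, without WT FGO replicate 2 among them (-0.93). For this difference, 2 members were called, both lower, while 6.82% of all genes were called, 3.41% higher and 3.41% lower. The difference includes nFGO, whose libraries carry another molecule label, and the part of that label was not tested. The granulosa and cumulus marker sum given above was higher in KO nFGO than in WT nFGO, and its part in the nFGO results was not tested. In the authors' deposited table Nsd1 had mean counts of 1564.5 in KO nFGO and 2344.4 in WT nFGO, a log2 fold change of -0.58 with p = 0.000268.

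The ratio of Setd2 to Nsd1 restates the values of the pair. With Setd2 higher and Nsd1 lower in KO fully grown oocytes it had to split by genotype there, so it is no further test. At nFGO the authors' deposited log2 fold changes, 0.21 for Setd2 and -0.58 for Nsd1, were smaller in size than the 0.61 and -0.83 found here by RPKM. It was 1.82 and 2.05 in KO nFGO, against 0.58 and 0.81 in WT nFGO, and 3.14 and 3.51 in KO FGO, against 1.43 and 1.45 in WT FGO. In growing oocytes the ratios of the genotypes lay closer, at 2.02 to 3.76 in KO and 2.33 to 3.36 in WT. Ash1l, the other K36 methylase, was at 1.342 to 2.45 RPKM in all libraries and was not called in any comparison.

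**Figure D3:**
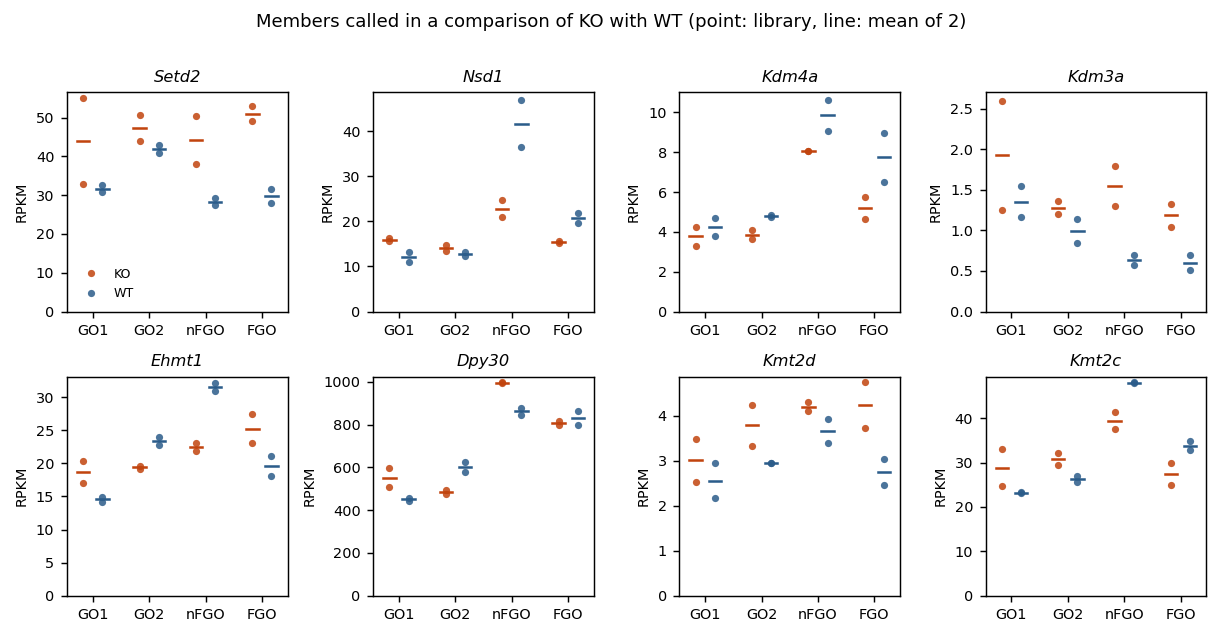
RPKM by stage of the 8 members called in a comparison of KO with WT or of KO effects between stages, KO left of WT, each point a library and each line the mean of 2. Setd2 is higher in KO and Nsd1 lower in KO at nFGO and FGO, and Kdm4a means are lower in KO at all 4 stages.

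Of the erasers of K9, Kdm3a, which removes mono- and dimethyl groups, was higher in KO over the 4 stages (log2 fold change 0.39, SE 0.11, limma adjusted p = 0.0154), a call kept under all 21 alternatives. Its level was low throughout. It had 1.79 and 1.30 RPKM in KO nFGO, against 0.70 and 0.58 RPKM in WT nFGO, and 1.04 and 1.33 RPKM in KO FGO, against 0.69 and 0.51 RPKM in WT FGO. At GO2 it had 1.20 and 1.36 RPKM in KO, against 1.14 and 0.84 RPKM in WT, and at GO1 2.60 and 1.25 RPKM in KO, against 1.16 and 1.54 RPKM in WT. The groups overlapped only at GO1. A pseudocount of 1 understates changes at such levels, and with 0.1 the log2 fold change was 0.69. Kdm3b, its relative, had 4.94 and 4.92 RPKM in KO GO1, against 3.43 and 3.73 RPKM in WT GO1, and did not pass the test over the 4 stages (0.19, limma adjusted p = 0.0728). With library medians made equal, or without the variance trend, Kdm3b was called over the 4 stages.

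Kdm4a, which removes trimethyl groups from K9 and K36, was the member lower in KO over the 4 stages (log2 fold change -0.28, SE 0.09, limma adjusted p = 0.0334). It had 8.06 and 8.08 RPKM in KO nFGO, against 10.6 and 9.09 RPKM in WT nFGO. At FGO it had 5.77 and 4.65 RPKM in KO, against 8.98 and 6.49 RPKM in WT. The groups did not overlap at either fully grown stage. At GO2 it had 4.10 and 3.63 RPKM in KO, against 4.83 and 4.74 RPKM in WT, and at GO1 3.31 and 4.25 RPKM in KO, against 3.80 and 4.70 RPKM in WT, where the groups overlapped. The call was lost with 10 of 16 libraries left out and was kept without WT FGO replicate 2 (-0.33, limma adjusted p = 0.0169). Kdm4b and Kdm4c had no call between KO and WT.

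Among the K9 methylases, Ehmt1, the partner of Ehmt2 in the enzyme that dimethylates K9, was lower in KO at nFGO (log2 fold change -0.48, SE 0.13, limma adjusted p = 0.0286). It had 23.1 and 21.8 RPKM in KO nFGO, against 32.2 and 30.996 RPKM in WT nFGO. At FGO the order was the opposite, with 27.5 and 23.02 RPKM in KO, against 21.1 and 18.03 RPKM in WT, and this did not pass the test (0.35, limma adjusted p = 0.0826, and 0.24 without WT FGO replicate 2, limma adjusted p = 0.362). The nFGO groups stood well apart, yet the call was lost when any 1 of the 4 libraries was left out, and the authors' deposited table gives Ehmt1 a log2 fold change of only -0.11 there (p = 0.474). At GO1 Ehmt1 had 20.4 and 17.1 RPKM in KO, against 14.2 and 15.0 RPKM in WT, and at GO2 19.7 and 19.2 RPKM in KO, against 23.995 and 22.8 RPKM in WT. Its sign thus changed from stage to stage, and over the 4 stages its log2 fold change was -0.01.

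Ehmt2 was near the floor in fully grown oocytes. At nFGO it had 1.05 and 0.75 RPKM in KO, against 0.36 RPKM in one WT library and a listed value of 0 in the other. At FGO it had 1.06 and 0.81 RPKM in KO, against 0.86 and 0.18 RPKM in WT. Neither difference was called by limma in the fit used throughout (adjusted p = 0.131 at nFGO and 0.406 at FGO). With a pseudocount of 0.1 Ehmt2 was called at nFGO. Without WT FGO replicate 2 the FGO log2 fold change was 0.06 in place of 0.38. The authors' deposited table gives mean counts of 14.04 in KO nFGO and 3.44 in WT nFGO (p = 0.167). Setdb1, Setdb2, Suv39h1 and Suv39h2 had no call between KO and WT, though for Suv39h1 this rests on the RPKM that its counts go against. For Suv39h2 the 95% intervals of the log2 fold change were narrow, at -0.19 to 0.26 at GO1 and -0.16 to 0.28 at FGO (-0.27 to 0.28 without WT FGO replicate 2).

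Among the K4 genes, Dpy30 (chr17:74299474-74323944) was lower in KO at GO2 (log2 fold change -0.31, SE 0.08, limma adjusted p = 0.0406). It had 495 and 475 RPKM in KO GO2, against 579 and 624 RPKM in WT GO2. At GO1 it had 596 and 509.9 RPKM in KO, against 459 and 445 RPKM in WT. The groups stood apart in opposite directions at these 2 stages, and the KO effect was lower at GO2 than at GO1 by 0.60 (SE 0.12, limma adjusted p = 0.0226), where Dpy30 was the only member called. There 4% of all genes were called, 1.84% higher and 2.16% lower. The GO2 call was lost when any 1 of its 4 libraries was left out, and the difference between stages was lost with 6 of 8 libraries left out. The granulosa and cumulus marker sum was also higher in KO GO2 than in WT GO2, and its part in the Dpy30 values was not tested. At nFGO Dpy30 had 994 and 997 RPKM in KO, against 880.0 and 845 RPKM in WT, and at FGO 819 and 798 RPKM in KO, against 864 and 797 RPKM in WT, with no call at either.

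Kmt2d, an enhancer K4 methylase, was higher in KO over the 4 stages (log2 fold change 0.27, SE 0.09, limma adjusted p = 0.0454). It had 3.72 and 4.74 RPKM in KO FGO, against 2.45 and 3.04 RPKM in WT FGO, and 4.29 and 4.09 RPKM in KO nFGO, against 3.91 and 3.40 RPKM in WT nFGO. At GO2 it had 4.24 and 3.33 RPKM in KO, against 2.94 and 2.95 RPKM in WT, and at GO1 3.48 and 2.52 RPKM in KO, against 2.18 and 2.94 RPKM in WT. The groups overlapped only at GO1, but the call was lost with 11 of 16 libraries left out, with a pseudocount of 0.1 and with no filter on low values. Without WT FGO replicate 2 it was kept (0.30, limma adjusted p = 0.0448).

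Kmt2c, its close relative, changed sides between the stages. It had 33.0 and 24.7 RPKM in KO GO1, against 23.3 and 23.2 RPKM in WT GO1, and 29.4 and 32.2 RPKM in KO GO2, against 25.6 and 26.9 RPKM in WT GO2. At nFGO it had 41.4 and 37.5 RPKM in KO, against 47.8 and 48.1 RPKM in WT, and at FGO 29.9 and 24.9 RPKM in KO, against 34.9 and 32.7 RPKM in WT. No stage had overlapping groups: KO was above WT in growing oocytes and under it in fully grown ones. None of the 4 stages was called for Kmt2c, but its KO effect was lower in fully grown than in growing oocytes by 0.54 (SE 0.14, limma adjusted p = 0.0393). This call was lost with 13 of 16 libraries left out, WT FGO replicate 2 among them (-0.56, limma adjusted p = 0.0566).

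Of the other K4 genes, Kmt2b had 6.27 and 8.08 RPKM in KO GO2, against 4.14 and 4.28 RPKM in WT GO2, which did not pass the test (0.64, limma adjusted p = 0.0686). The authors' deposited table gives Kmt2b a log2 fold change of only 0.11 there (p = 0.552). Kdm1b had 86.0 and 103 RPKM in KO FGO, against 53.1 and 79.9 RPKM in WT FGO. These did not overlap and did not pass (0.52, 95% interval 0.06 to 0.99, limma adjusted p = 0.113), but without WT FGO replicate 2 Kdm1b was the 1 member called at FGO. The authors' deposited table gives Kdm1b a log2 fold change of 0.47 at FGO (p = 0.000471). Kmt2e, Setd1a, Setd1b, Wdr5, Ash2l, Rbbp5, Men1, Cxxc1, Kdm1a, Kdm5a and Kdm5b had no call between KO and WT, nor did Kdm2a and Kdm6b in the fit used throughout. With library medians made equal, or without the variance trend, Kdm2a was called at GO1 and Kdm6b over the 4 stages. Without the variance trend Kdm2a was called at nFGO too. Kdm2a RPKM differed in sign between stages, with 2.098 and 1.92 RPKM in KO GO1, against 1.11 and 0.93 RPKM in WT GO1, but 1.48 and 1.72 RPKM in KO nFGO, against 2.97 and 2.45 RPKM in WT nFGO. Neither of these passed the test (limma adjusted p = 0.0599 and 0.0574). The authors' deposited table gives Kdm2a no such difference at nFGO, with mean counts of 120.5 in KO and 123.7 in WT, a log2 fold change of -0.04 with p = 0.867.

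The comparison of WT stages follows the same genes through normal growth. Between WT GO2 and WT GO1, 4 members were higher and 2 lower, 18.8% of those tested, while 7.55% of all genes were called, 3.17% higher and 4.38% lower. All 6 calls were lost when any 1 of the 4 libraries was left out, and no member was then called. Ehmt1 had 23.995 and 22.8 RPKM in WT GO2, against 14.2 and 15.0 RPKM in WT GO1 (log2 fold change 0.65, limma adjusted p = 0.0181). Kdm2a had 2.04 and 2.27 RPKM in WT GO2, against 1.11 and 0.93 RPKM in WT GO1 (0.65, limma adjusted p = 0.0386). For these and for the next 4 genes the groups did not overlap.

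Setdb2, a K9 methylase, had 52.5 and 53.5 RPKM in WT GO2, against 36.8 and 31.9 RPKM in WT GO1 (log2 fold change 0.61, limma adjusted p = 0.0473). Dpy30 had 579 and 624 RPKM in WT GO2, against 459 and 445 RPKM in WT GO1 (0.41, limma adjusted p = 0.0173). The 2 genes that fell were both core subunits of the K4 methylase complexes. Wdr5 had 32.9 and 32.3 RPKM in WT GO2, against 44.3 and 48.5 RPKM in WT GO1 (-0.50, limma adjusted p = 0.0171). Ash2l had 33.0 and 39.1 RPKM in WT GO2, against 53.9 and 60.7 RPKM in WT GO1 (-0.66, limma adjusted p = 0.0253). Dpy30 and these 2 subunits of one core complex thus moved in opposite directions.

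Between WT FGO and WT GO2, 5 members were higher and 7 lower, 37.5% of those tested, while 48.4% of all genes were called, 26.3% higher and 22.1% lower. The FGO had been collected after hormone and the GO2 had not, so growth and hormone cannot be told apart in this comparison, and WT nFGO values, collected without it, are set beside the main ones. The 7 members that fell included 5 demethylases. Kdm1b (chr13:47043499-47085279) changed most of all members, with 53.1 and 79.9 RPKM in WT FGO, against 313 and 385 RPKM in WT GO2 (log2 fold change -2.40, SE 0.21, limma adjusted p = 4.18e-06). WT nFGO had 104 and 85.3 RPKM, also far under WT GO2. The mean was 5.25 times lower in WT FGO than in WT GO2, and without WT FGO replicate 2 Kdm1b stayed called.

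In KO, where stages were not compared by test, Kdm1b had 86.0 and 103 RPKM in KO FGO, against 293 and 267 RPKM in KO GO2. Kdm1a was not called, at 21.4 and 16.0 RPKM in WT FGO, against 19.2 and 17.2 RPKM in WT GO2. The ratio of Kdm1b to Kdm1a was 2.48 and 4.98 in WT FGO, against 16.3 and 22.5 in WT GO2. Even so Kdm1b remained the higher of the 2 in each library. Kdm5a, a demethylase of trimethylated K4, had 1.339 and 0.70 RPKM in WT FGO, against 4.31 and 4.04 RPKM in WT GO2 (log2 fold change -1.37, limma adjusted p = 0.000720). Kdm5b was not called, and the ratio of Kdm5a to Kdm5b was 0.38 to 0.67 in WT FGO, against 1.91 to 4.24 in WT GO2.

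Setd1b, the one K4 methylase that fell, had 0.77 and 0.83 RPKM in WT FGO, against 2.97 and 3.35 RPKM in WT GO2 (log2 fold change -1.21, limma adjusted p = 0.00238). Its relative Setd1a stood at 9.66 and 7.75 RPKM in WT FGO, against 7.83 and 7.17 RPKM in WT GO2, with no call. Among the K9 genes Ehmt2 had 0.86 and 0.18 RPKM in WT FGO, against 4.20 and 4.03 RPKM in WT GO2 (-1.79, limma adjusted p = 0.000378). Its partner Ehmt1 was not called, at 21.1 and 18.03 RPKM in WT FGO, against 23.995 and 22.8 RPKM in WT GO2. The ratio of Ehmt1 to Ehmt2 was accordingly 24.6 and 99.9 in WT FGO, against 5.67 and 5.71 in WT GO2, and it was also high in KO, at 25.97 and 28.4 in KO FGO, against 4.66 and 5.72 in KO GO2.

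The remaining falls were of demethylases at low levels. Kdm3b had 1.58 and 1.68 RPKM in WT FGO, against 3.81 and 3.19 RPKM in WT GO2 (log2 fold change -0.77, limma adjusted p = 0.00133). Kdm4b had 0.71 and 0.17 RPKM in WT FGO, against 2.33 and 1.24 RPKM in WT GO2 (-0.95, limma adjusted p = 0.00924). Kdm2a had 1.41 and 0.86 RPKM in WT FGO, against 2.04 and 2.27 RPKM in WT GO2 (-0.58, limma adjusted p = 0.0133), but at WT nFGO it stood at 2.97 and 2.45 RPKM, above WT GO2. By RPKM the 2 fully grown WT groups of Kdm2a therefore lay on opposite sides of WT GO2. The authors' deposited mean counts do not show Kdm2a higher in WT nFGO, at 123.7 there and 188.3 in WT GO2. Their sum over all genes was lower in WT nFGO as well. The count for each RPKM of Kdm2a was 45.6 in WT nFGO and 87.3 in WT GO2, where the median gene had 19.5 and 32.4. For the other genes that fell the WT nFGO values lay under both WT GO2 libraries too, at 1.91 and 1.28 RPKM for Kdm5a, 1.08 and 0.94 RPKM for Setd1b, 0.36 and a listed 0 RPKM for Ehmt2, 1.39 and 1.54 RPKM for Kdm3b, and 0.54 and 0.57 RPKM for Kdm4b. The Kdm4b call was lost without WT FGO replicate 2 or WT GO2 replicate 1, and the Kdm2a call without WT FGO replicate 2 or WT GO2 replicate 2, while those of Kdm1b, Kdm5a, Setd1b, Ehmt2 and Kdm3b were kept with every library left out.

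**Figure D4:**
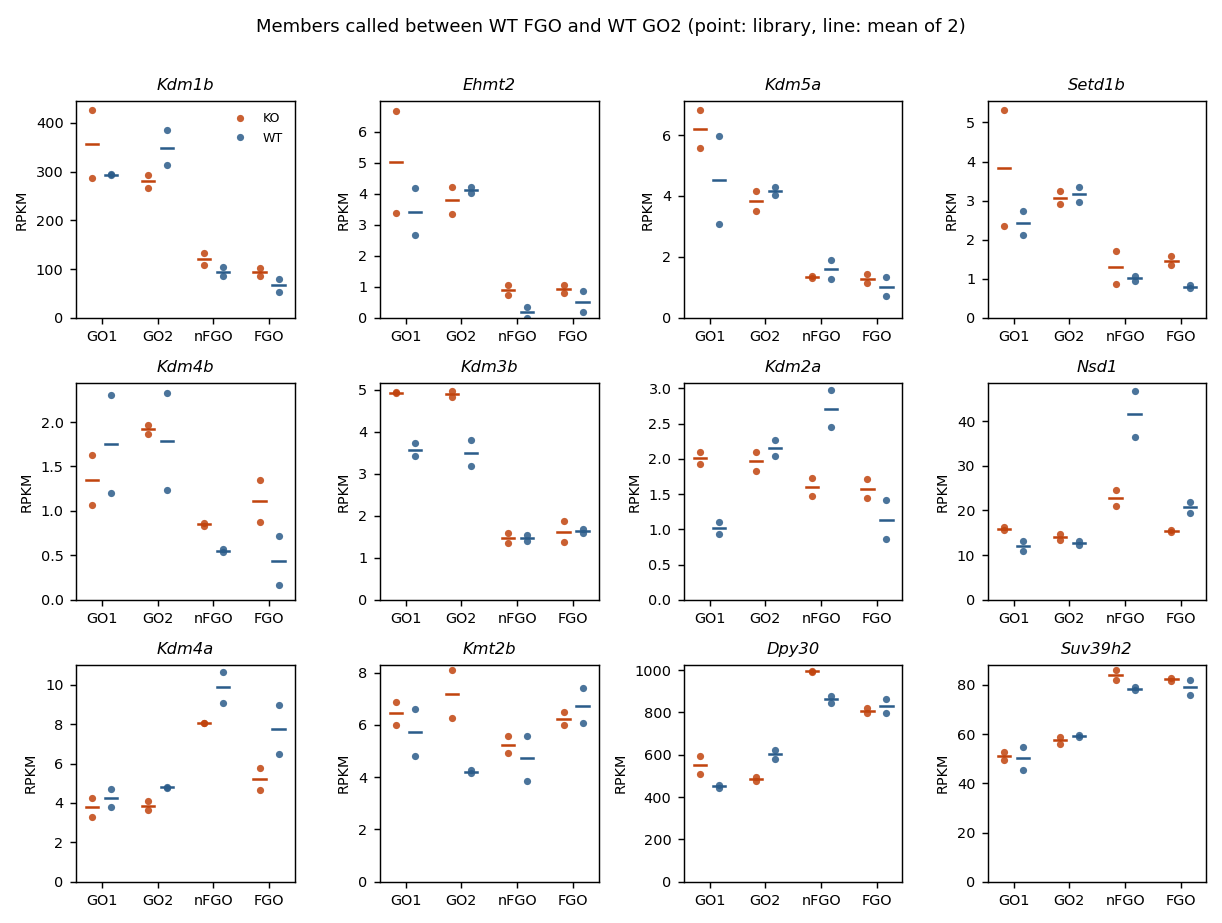
RPKM by stage of the 12 members called between WT FGO and WT GO2, KO left of WT, each point a library and each line the mean of 2. Kdm1b is at 53.1 to 79.9 RPKM in WT FGO, against 313 to 385 RPKM in WT GO2, and Dpy30 and Suv39h2 lie higher in both fully grown stages than in the growing ones.

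The 5 members higher in WT FGO were a K4 methylase, a K4 complex subunit, a K9 methylase, a K36 methylase and a demethylase of K9 and K36. Dpy30 had 864 and 797 RPKM in WT FGO, against 579 and 624 RPKM in WT GO2 (log2 fold change 0.46, limma adjusted p = 0.000602). Suv39h2, the heterochromatin K9 methylase, had 82.2 and 75.8 RPKM in WT FGO, against 59.6 and 58.7 RPKM in WT GO2 (0.41, limma adjusted p = 0.00547). Nsd1 had 21.9 and 19.5 RPKM in WT FGO, against 13.2 and 12.2 RPKM in WT GO2 (0.66, limma adjusted p = 0.00321). These 3 calls were kept with every library left out, and their WT nFGO values were higher than WT GO2 too, at 880.0 and 845 RPKM for Dpy30, 79.0 and 77.7 RPKM for Suv39h2, and 36.4 and 46.8 RPKM for Nsd1.

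Kmt2b, a promoter K4 methylase, had 6.06 and 7.39 RPKM in WT FGO, against 4.14 and 4.28 RPKM in WT GO2 (log2 fold change 0.56, limma adjusted p = 0.0330). The authors' deposited mean counts do not show this rise, at 376.1 in WT FGO and 412.5 in WT GO2. The count for each RPKM of Kmt2b was 55.9 in WT FGO and 98.0 in WT GO2, where the median gene had 24.9 and 32.4. Kdm4a had 8.98 and 6.49 RPKM in WT FGO, against 4.83 and 4.74 RPKM in WT GO2 (0.58, limma adjusted p = 0.0208). At WT nFGO, without hormone, Kmt2b had 3.85 and 5.59 RPKM, 1 of them under both WT GO2 libraries, while Kdm4a had 10.6 and 9.09 RPKM, above WT GO2. Each of these 2 calls was kept with only 1 of the 4 libraries left out: that of Kmt2b without WT FGO replicate 1, and that of Kdm4a without WT FGO replicate 2 (0.79, limma adjusted p = 0.0116). In KO the values of these stages lay closer for Nsd1 and Kdm4a: Nsd1 had 15.6 and 15.1 RPKM in KO FGO, against 14.8 and 13.5 RPKM in KO GO2, and Kdm4a had 5.77 and 4.65 RPKM in KO FGO, against 4.10 and 3.63 RPKM in KO GO2. Growth within KO was not tested.

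Of 29 calls of members over the 9 comparisons, 11 held under every alternative and 12 with every library left out, and none changed direction. In all 20 members were called at least once and 13 never. The span of 10 members overlaps that of another protein-coding gene in RefSeq (GRCm38.p6), on either strand. Reads in any exons they share could not be told apart, since the cDNA kit named in the labels does not mark strand. Whether their exons overlap was not tested. Among members called, this touches Kdm1b (with Dek), Suv39h2 (Dclre1c), Setdb2 (Gm45935), Kdm2a (9430078G10Rik) and Kdm5a (Ccdc77).

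Further genes of the same pathways were taken from 2 lists: 18 other H3 lysine methylases and demethylases, 16 of them tested, and 22 partners and readers, all tested. Of the other enzymes, 0 were called at GO1 or at GO2, 2 were lower at nFGO, 1 was lower at FGO and 3 were lower over the 4 stages in KO (12.5, 6.25 and 18.8% of those tested, under the 16.2, 17.8 and 33% of all genes called there), and none was higher in KO in any of these 5 comparisons. At GO1 2 of them and at GO2 0 had an unadjusted limma p under 0.05. Of the partners and readers, 1 was higher at GO1 and at GO2, 1 higher and 1 lower at nFGO, 2 higher and 1 lower at FGO, and 3 higher and 2 lower over the 4 stages, which is 4.55 to 22.7% of those tested and in each comparison under the share of all genes. The gene of these lists with the largest rise was Pagr1a, a subunit particular to the Kmt2c and Kmt2d complexes. It had 136 and 144 RPKM in KO FGO, against 50.4 and 49.4 RPKM in WT FGO, and was called higher at all 4 stages (log2 fold change 0.71 at GO1, 0.72 at GO2, 0.85 at nFGO and 1.47 at FGO). Over the 4 stages it was 0.94 (SE 0.09, limma adjusted p = 1.41e-05), and this call and that at FGO were kept with every library left out. The calls at GO1 and nFGO were each kept with 2 of 4 libraries left out and that at GO2 with 1 of 4.

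Phf8, a demethylase of K9, was lower in fully grown KO oocytes, with 18.1 and 19.7 RPKM in KO nFGO, against 37.1 and 40.3 RPKM in WT nFGO (log2 fold change -0.99, limma adjusted p = 0.00161), and 21.8 and 16.3 RPKM in KO FGO, against 30.7 and 29.8 RPKM in WT FGO (-0.65, limma adjusted p = 0.0126). Without WT FGO replicate 2 the FGO call was lost (-0.67, limma adjusted p = 0.0508). At GO1 and GO2 its log2 fold changes were 0.16 and 0.09, and the KO effect was lower in fully grown than in growing oocytes by 0.95 (limma adjusted p = 0.00480, and by 0.96 without WT FGO replicate 2). The same direction was given above for Nsd1 and Kmt2c. Both genes named from these lists were chosen after their values were seen. Between WT FGO and WT GO2, 3 of the other enzymes were higher and 3 lower, and 3 of the partners and readers were higher and 9 lower, 37.5% and 54.5% of those tested, where 48.4% of all genes were called.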

How the data were processed

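RNA-seq of 20 pooled oocytes a library was analysed for 16 libraries in 8 groups of 2, and the 8 ATAC-seq samples were not used here. Per the submitters' processing notes the authors used HISAT2 2.1.0, Trim Galore 0.4.5, Cuffnorm of Cufflinks 2.2.1, and DESeq 1.34.1, with the mm10 genome. The authors deposited RPKM per gene and library, per the file headers, and for each stage the mean count of each group, which is a normalised signal, a log2 fold change and a p-value. Whether that deposited p-value was adjusted is not given in the sources used here, and it entered no test. Reads were not recoverable as whole numbers from the RPKM values, so the depth of each library is unknown and no count test was run. Of 16975 gene IDs in 18060 lines, 35 with conflicting repeats were left out, none a member, and 16936 of the 16940 kept matched the name table.

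The members and the gene lists were chosen with earlier results of these data known. Values were taken as log2(RPKM + 1), for the 14557 genes that reached 1 RPKM in 2 libraries or more. A fold change on this scale understates changes of genes near or under 1 RPKM. limma 3.58.1 in R 4.3.3 was fitted with 1 mean per group over all 16 libraries and a variance trend (8 residual and 4.01 prior degrees of freedom), with Benjamini-Hochberg adjustment within each of 9 comparisons and calls at an adjusted p under 0.05. The fit was tested on simulated data. Members called at least once were named with their values, and the others by level. Alternatives were a pseudocount of 0.1, no filter, equal library medians, no variance trend, a replicate block, the 4 libraries of a stage alone, and each library left out. Figures were drawn with matplotlib 3.10.9, and promoters came from RefSeq.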

Additional observations from a re-analysis of the deposited data

Results flagged for a closer look

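For 3 members the difference between KO and WT differed between stages by a test of the difference itself, with limma and Benjamini-Hochberg adjustment over all genes tested. For Dpy30 the log2 fold change of KO over WT was lower at GO2 than at GO1 by 0.60 (difference -0.597, SE 0.12, adjusted p = 0.0226), with both KO libraries above both WT libraries at GO1 and both under them at GO2. Nsd1 differed between the fully grown and the growing stages by -0.885 (SE 0.15, adjusted p = 0.00600), and Kmt2c by -0.542 (SE 0.14, adjusted p = 0.0393). In both genes KO was above WT in every library pair at GO1 and GO2 and under WT at nFGO and FGO. The Nsd1 difference was called under all 21 alternatives. The Dpy30 and Kmt2c differences were each lost with most of the libraries left out in turn.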

How the results depend on the processing

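Under the 9 to 21 alternatives run for each comparison no call of a member changed direction. The counts of members called moved as follows. At GO1 the count was 0, with 2 when library medians were made equal and 1 each without the variance trend and with the replicate block. At GO2 it was 1, with 0 without the variance trend and 0 when only the 4 libraries of the stage were fitted. At nFGO it was 2, with 0 in the fit of the stage alone. For the KO effect at GO2 minus GO1 it was 1, with 0 without the variance trend, where the count over all genes was 101 in place of 582. The fit of the stage alone called 16 of all genes at GO1, 291 at GO2, 1174 at nFGO and 1072 at FGO, against 965, 1112, 2354 and 2596 in the fit of all 16 libraries. That fit has fewer residual degrees of freedom by construction. With each library left out in turn, the members called ranged from 0 to 8 at GO1, 0 to 0 at GO2, 1 to 2 at nFGO, 0 to 1 at FGO, 2 to 7 over the 4 stages, 0 to 0 for WT GO2 against GO1, 9 to 11 for WT FGO against GO2, 0 to 6 for the KO effect at GO2 minus GO1, and 1 to 3 for that in fully grown minus growing oocytes. All genes called ranged from 230 to 2741 at GO1, 61 to 452 at GO2, 957 to 1375 at nFGO, 1189 to 1628 at FGO, 13 to 291 for WT GO2 against GO1, 4 to 2403 for the KO effect at GO2 minus GO1, and 512 to 1309 for fully grown minus growing. The 8 members at GO1, the 7 over the 4 stages (Kdm3a, Kdm4a, Kmt2d and Setd2 among them) and the 6 for GO2 minus GO1 were all called without KO GO1 replicate 2. Over all genes the counts moved as well, by the ranges given above, so these member counts alone are not a result about the members. A lone library left in a group is assumed to vary like the other groups, and the cause of these moves was not tested. Replicate numbers did not pair the samples: deviations of same-numbered libraries correlated over 0.1 in 1 of 28 pairs of groups (range -0.184 to 0.131). With the replicate block as a term, 3 members were called at nFGO, where Setd2 joined Nsd1 and Ehmt1, and over the 4 stages Kdm6b was called in place of Kmt2d.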
